A study of Mus musculus with 7 samples.

Results

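Cd28, Cd226, Ctla4, Havcr2, Tigit, Lag3, Btla and Cd200 encode surface receptors, and the ligand CD200, that raise or dampen the response of a T cell to its antigen. The accessible chromatin at these 8 genes was described in CD4+ T cells of mice infected with the helminth Nippostrongylus brasiliensis. Every region of the deposited ATAC-seq table that overlapped the GENCODE body of a member gene, or the 10 kb on either side of it, was taken, which gave 165 of the 113820 regions. Cd226 held 48 of them, Tigit 22, Ctla4 and Btla 21 each, Cd28 18, Lag3 14, Cd200 11 and Havcr2 10. ATAC-seq counts the insertions of a transposase into open DNA, and the deposited values are log2 normalized insertions per kb of region. All coordinates are GRCm38/mm10.

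Reporter mice on the C57BL/6 background gave the 7 libraries on day 8 of an infection with 500 larvae, with 50000 sorted CD4+ T cells per library. Cells that were GFP+ in IL-4-4get mice, in which a green reporter marks cells competent to make IL-4, were sorted from the mediastinal lymph node (IL-4+ LN, n = 2) and from the lung (IL-4+ lung, n = 3). Cells that were YFP+ in IFN-gamma-Great mice, in which a yellow reporter marks IFN-gamma expression, were sorted from the lung (IFNγ+ lung, n = 2). All were infected, and reporter-negative cells and uninfected mice were not analysed here. The pair of lung populations differed in reporter line as well as in cytokine, and IFNγ+ lung and IL-4+ LN cells differed in reporter line, cytokine and tissue, so these cannot be told apart in those comparisons.

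A T cell needs a costimulatory signal beside its antigen receptor. CD28 supplies it when it binds CD80 or CD86, and CTLA-4 competes for the same ligands and restrains the cell. CD226 and TIGIT form a second such pair on the ligands CD155 and CD112, one activating and one inhibitory. LAG-3, which binds MHC class II, TIM-3, the product of Havcr2, and BTLA, which binds the TNF receptor family member HVEM, are inhibitory receptors, and CD200 is a membrane ligand that restrains cells bearing its receptor. TIM-3 was first described on Th1 cells, while BTLA and CD200 are known as surface markers of follicular helper T cells in lymphoid tissue.

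The libraries held at least 14005923 to 91681969 insertions by counts rebuilt from tied values. Their spread of insertions over regions fell into a pair of classes that crossed the IL-4+ populations. As log2, the upper quartile over the lower one was 1.64 to 1.73 in IL-4+ LN replicate 1 and IL-4+ lung replicates 2 and 3 (the narrow class). It was 2.87 to 3.05 in the other 4 libraries (the wide class), among them both IFNγ+ lung libraries. Population and class are thus partly mixed in every comparison with IFNγ+ lung cells. The T cell genes Cd3d, Cd3e, Cd3g, Cd4, Cd247 and Zbtb7b, all with regions, had summed levels of 919 to 1577 normalized insertions. Cd8a and Cd8b1 together had 7.09 to 13.6. In the text, within-class differences stand beside some results and not others, so their absence does not mean that the classes agree. Between the IL-4+ populations, the locus sum difference had opposite signs in the classes at Cd28, Ctla4, Tigit and Cd226. A region that is open in fewer cells cannot be told apart in these bulk libraries from one that is less open in each cell.

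No member region was without an insertion in any library, and the lowest rebuilt counts of a member region were 3 to 14 insertions per library. By place, 80 of the 165 regions lay in introns, 42 in the flanks, 22 overlapped exons and 21 lay within 1 kb of an annotated start. Their median GC content was 42.1%, against 46.9% over all regions. A mean density of at least 5 normalized insertions per kb in at least 1 population was reached by 88 member regions (53.3%), against 58.2% of all regions. It was reached by 13 of 18 regions at Cd28, 15 of 21 at Ctla4, 10 of 14 at Lag3 and 7 of 10 at Havcr2, and by only 4 of 11 at Cd200 and 16 of 48 at Cd226.

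Per kb of region and averaged over the populations, Ctla4 was densest with 12.3 normalized insertions per kb, followed by Lag3 with 11.9, Tigit with 11.7, Havcr2 with 10.4, Cd28 with 9.87 and Btla with 9.49. Cd200 with 5.47 and Cd226 with 5.45 were the least dense. The order differed between populations. Ctla4 with 12.8 and Btla with 12.3 led in IL-4+ LN cells, where Havcr2 with 5.74 was below Cd200 with 6.92. Lag3 and Ctla4, both at 13.2, led in IL-4+ lung cells, and Tigit with 13.3 and Havcr2 with 13.2 led in IFNγ+ lung cells. The genes of each leading pair differed by less than the larger SD of the pair. At the start of its first protein-coding transcript, Tigit had the most open region of the 8 genes, with 6.09 to 6.82 log2 normalized insertions per kb in the 7 libraries. At Havcr2 both LN libraries were below all 5 lung libraries in the start region, and at Cd200 both were above them.

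**Figure D1:**
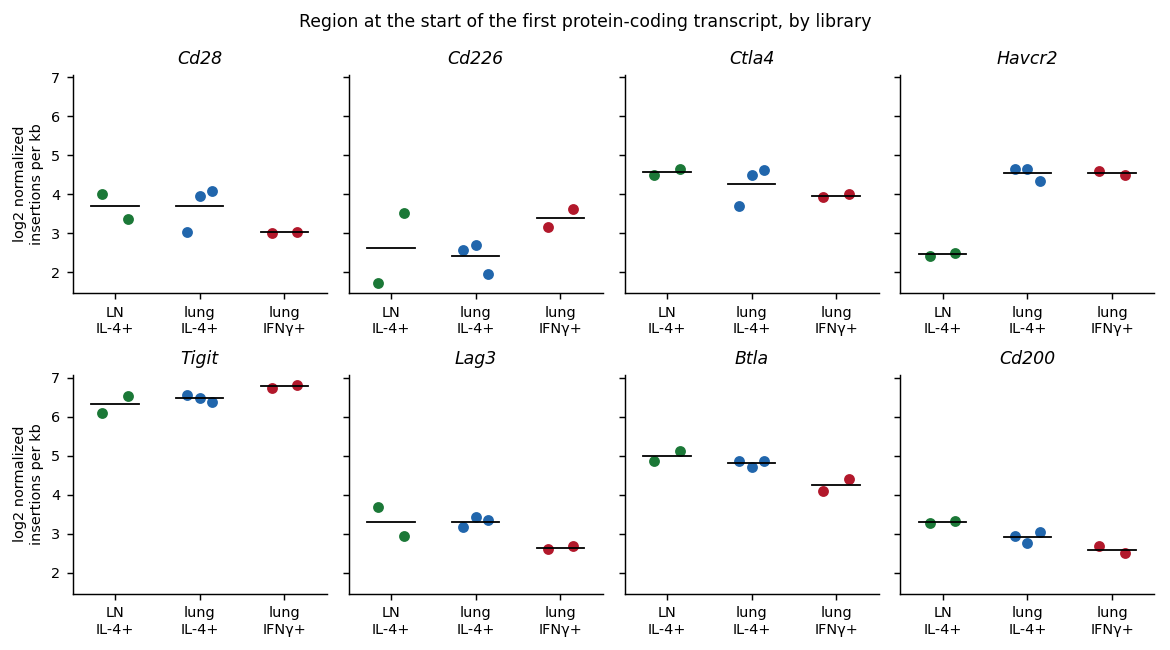
Log2 normalized insertions per kb (y axis) in the region that covers the start of the first protein-coding transcript of each gene, or for Btla the region that ends just upstream of it, in each library (points) with population means (lines) for IL-4+ LN (n = 2), IL-4+ lung (n = 3) and IFNγ+ lung cells (n = 2); the y axis does not start at 0. Havcr2 lay at 2.41 and 2.5 in the LN and at 4.33 to 4.66 in the 5 lung libraries.

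Differences were tested with limma over all 113820 regions, and calls needed both an adjusted p below 0.05 and a 3-fold difference or more. Between the IL-4+ populations, 2 member regions (1.21%) were higher in the lung, against 1.05% of all regions, and 3 (1.82%) were higher in the LN, against 0.695%. Between IFNγ+ lung and IL-4+ LN cells, 7 member regions (4.24%) were higher in IFNγ+ lung cells, against 2.17% of all regions, and 2 (1.21%) were higher in IL-4+ LN cells, against 0.862%. Between the lung populations, 1 member region (0.606%) was higher in IFNγ+ cells, against 0.387%, and 0 were higher in IL-4+ cells, against 0.108%, with 7 (4.24%) at an unadjusted limma p below 0.05, against 6.36% of all regions, of which 0 reached the fold. In the other direction 17 (10.3%) had an unadjusted limma p below 0.05, against 8.45%, and 5 of them reached the fold. All 5 lay at Cd226, which held 48 of the 165 member regions. The share of all regions past both limits is not given here, so the 0 and 5 cannot be set against it. The 15 calls fell on 11 regions at Havcr2, Cd226, Ctla4 and Btla, and comparisons with IL-4+ LN cells share the same 2 LN libraries.

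Libraries that did not overlap between populations were more frequent. Between the IL-4+ populations, every lung library was above every LN library in 24 member regions (14.5%), against 13.6% of all regions, and below in 19 (11.5%), against 14.3%. Both IFNγ+ lung libraries were above both IL-4+ LN libraries in 51 member regions (30.9%), against 26.5%, and below in 42 (25.5%), against 27.2%. IL-4+ lung libraries were above IFNγ+ lung libraries in 19 (11.5%), against 19.4%, and below in 43 (26.1%), against 21.2%. Of these 43 regions, 22 lay at Cd226, which held 48 of the 165 member regions.

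**Figure D2:**
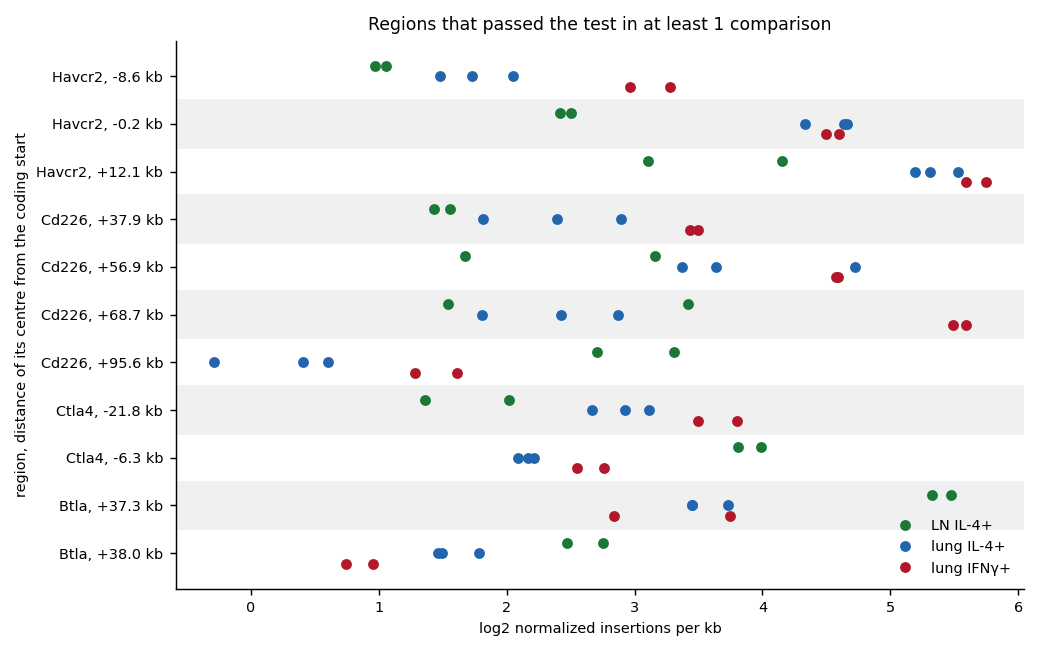
Log2 normalized insertions per kb (x axis) of the 11 member regions that passed the test in at least 1 comparison, with 1 point per library for IL-4+ LN (green), IL-4+ lung (blue) and IFNγ+ lung cells (red); rows name the gene and the distance of the region centre from its coding start in kb. At the 3 Havcr2 regions both LN libraries lay below all lung libraries, and at the Btla regions both lay above them.

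To set the genes side by side, normalized insertions, which voom scales to the library total, were summed over all regions of a locus, and the log2 of the sum plus 1 was tested with limma over 17021 protein-coding loci. The sums of 2 member loci differed between populations at an adjusted p below 0.05. Havcr2 was higher in IL-4+ lung than in IL-4+ LN cells, as were 0.693% of all loci, and in IFNγ+ lung than in IL-4+ LN cells, as were 1.39%. Btla was lower in IFNγ+ lung than in IL-4+ LN cells, as were 0.864% of all loci. No member locus was lower in IL-4+ lung than in IL-4+ LN cells (0.482% of all loci), and none differed between the lung populations, where 0.0176% and 0.118% of all loci were higher in IL-4+ and in IFNγ+ cells. At an unadjusted limma p below 0.05, Btla and Cd200 were lower in IL-4+ lung than in IL-4+ LN cells. Cd200 was also lower, and Tigit and Cd226 higher, in IFNγ+ lung than in IL-4+ LN cells. Between the lung populations Lag3 was higher and Tigit lower in IL-4+ cells. The share of all loci past this unadjusted threshold is not given, so these loci cannot be set against it. With library weights, Cd28, Ctla4 and Lag3 were called higher and Tigit and Cd226 lower in IL-4+ lung than in IFNγ+ lung cells (limma adjusted p of 1.01e-06 to 0.000606). The estimation of these weights stopped before convergence, and each of these calls was made in only 1 of 18 other settings. The share of all loci called with library weights is not given, so these calls cannot be set against it.

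**Figure D3:**
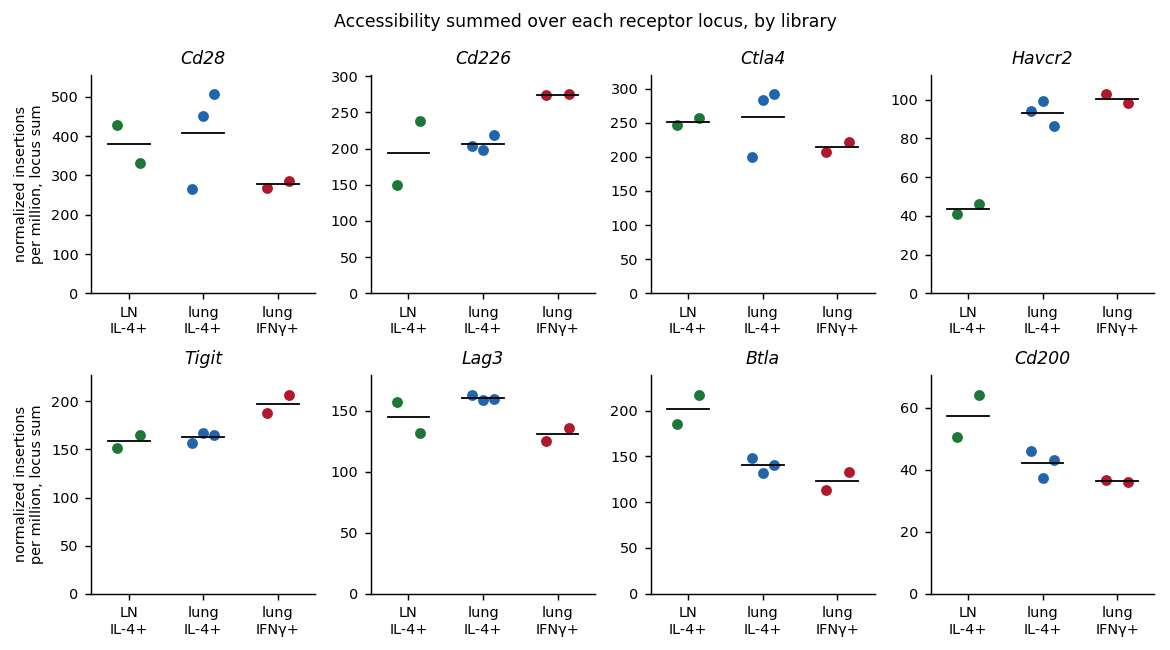
Normalized insertions summed over the regions of each member locus (y axis, from 0) in each library (points) with population means (lines). Havcr2 was higher in all 5 lung libraries (86.7 to 102.7) than in both LN libraries (41.1 and 46.4), while Btla and Cd200 were lower in all 5.

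Havcr2, on the plus strand of chromosome 11, encodes TIM-3, an inhibitory receptor of activated T cells. Its locus sum was 41.1 and 46.4 in the IL-4+ LN libraries, 94.1, 99.3 and 86.7 in the IL-4+ lung libraries and 102.7 and 98.5 in the IFNγ+ lung libraries. The lung populations overlapped each other, and neither overlapped the LN. The sum was 2.11-fold higher in IL-4+ lung than in IL-4+ LN cells (log2 difference 1.08, SE 0.12, limma adjusted p = 0.0166) and 2.28-fold higher in IFNγ+ lung than in IL-4+ LN cells (1.19, SE 0.13, limma adjusted p = 0.00941). Between the lung populations the log2 difference was -0.11 (SE 0.12, limma adjusted p = 0.596). Within the spread classes the IL-4+ lung sum minus the IL-4+ LN sum was 1.16 (narrow) and 1.01 (wide) on the log2 scale. The call between the IL-4+ populations was lost without IL-4+ lung replicate 2 or 3 or IFNγ+ lung replicate 1 or 2, with log2 differences of 1.03 to 1.13 and limma adjusted p of 0.0709 to 0.136. That between IFNγ+ lung and IL-4+ LN cells was lost without either IFNγ+ lung library (limma adjusted p = 0.196 and 0.13).

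In both comparisons with the LN, the Havcr2 region with the smallest p was the one at its start, chr11:46454315-46455144, which covers both annotated protein-coding starts. Its log2 level was 2.41 and 2.5 in IL-4+ LN, 4.66, 4.64 and 4.33 in IL-4+ lung and 4.60 and 4.50 in IFNγ+ lung libraries. It was 4.24-fold higher in IL-4+ lung than in IL-4+ LN cells (log2 difference 2.08, SE 0.21, limma adjusted p = 0.00258) and 4.25-fold higher in IFNγ+ lung than in IL-4+ LN cells (2.09, SE 0.23, limma adjusted p = 0.00205). The lung populations were within 0.004 of each other on the log2 scale, with an SE of 0.21. Each of these calls held in 17 of 18 other settings, and the latter was lost without IFNγ+ lung replicate 1 (log2 difference 2.04, limma adjusted p = 0.0613). A second called region, chr11:46466811-46467340, overlaps an exon 12.1 kb downstream of the start. Its log2 level was 3.11 and 4.15 in the LN, 5.53, 5.31 and 5.19 in IL-4+ lung and 5.75 and 5.59 in IFNγ+ lung libraries, so the LN libraries were a whole log2 unit apart and still below the lung. The log2 differences were 1.71 (SE 0.27, limma adjusted p = 0.0114) for IL-4+ lung and 2.04 (SE 0.30, limma adjusted p = 0.00582) for IFNγ+ lung cells over IL-4+ LN cells. Without IL-4+ LN replicate 1 these were 1.19 and 1.52, below the fold required. The IL-4+ lung call was also lost without IL-4+ lung replicate 2 (limma adjusted p = 0.0734), with voom on rebuilt counts or with the replicate block. The IFNγ+ lung call was also lost without IFNγ+ lung replicate 1 or 2 or with the replicate block.

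Another called region, chr11:46446158-46446561, lies 8.6 kb upstream of the Havcr2 start. It is inside the body of the lincRNA gene 2310031A07Rik and within 1 kb of an annotated start of that gene, so it cannot be assigned to Havcr2. The log2 level of this region was 0.97 and 1.05 in the LN, 1.48, 2.05 and 1.73 in IL-4+ lung and 2.96 and 3.27 in IFNγ+ lung libraries. The populations stepped up in that order without overlap. Only IFNγ+ lung over IL-4+ LN cells passed the test (2.11, SE 0.41, limma adjusted p = 0.0188), while the log2 difference was 0.74 (SE 0.37, limma adjusted p = 0.366) for IL-4+ lung over IL-4+ LN cells and -1.37 (SE 0.37, limma adjusted p = 0.144) for IL-4+ lung minus IFNγ+ lung cells. The call was lost without IL-4+ LN replicate 1 or either IFNγ+ lung library, and with voom on rebuilt counts or the replicate block. The rebuilt counts behind it were 41 and 34 insertions in the LN and 137 and 312 in IFNγ+ lung libraries. Over the 10 Havcr2 regions, this upstream one included, IFNγ+ lung cells were above IL-4+ LN cells in mean level in 10 and IL-4+ lung cells in 9. Of all 113820 regions, IFNγ+ lung cells were above in 55188 and IL-4+ lung cells in 54339.

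The central 300 bases of these 3 regions, outside annotated UTRs, are shown because they are the called regions in the Havcr2 window (GRCm38, plus strand, read 5′ to 3′). Capitals mark matches, on either strand, to the letters searched, which were AACCACA for the RUNX family, AGGTGTGA for the T-box family, AGATAA for the GATA family and TGANTCA for the bZIP family. For the TCF family they were ATCAAAG and the other spelling TTCAAAG, for the NFAT family TGGAAAA, for the ETS family AGGAAGT and for the NR4A family AAAGGTCA. The upstream window holds the RUNX letters 3 times, the start window holds the GATA, ETS and bZIP letters once each, and the downstream window holds the NFAT letters once.
Havcr2 upstream, chr11:46446210-46446509: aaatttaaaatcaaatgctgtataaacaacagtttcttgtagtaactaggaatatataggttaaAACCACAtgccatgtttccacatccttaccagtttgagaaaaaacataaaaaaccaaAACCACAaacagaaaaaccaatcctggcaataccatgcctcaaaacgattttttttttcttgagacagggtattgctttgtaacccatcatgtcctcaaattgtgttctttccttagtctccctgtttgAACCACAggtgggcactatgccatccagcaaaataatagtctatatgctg
Havcr2 start, chr11:46454580-46454879: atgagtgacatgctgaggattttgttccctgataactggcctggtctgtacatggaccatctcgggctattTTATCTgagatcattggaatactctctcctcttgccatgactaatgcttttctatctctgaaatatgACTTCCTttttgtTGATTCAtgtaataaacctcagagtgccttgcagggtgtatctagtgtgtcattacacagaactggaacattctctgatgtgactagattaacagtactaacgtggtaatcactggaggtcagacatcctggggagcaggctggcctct
Havcr2 downstream, chr11:46466926-46467225: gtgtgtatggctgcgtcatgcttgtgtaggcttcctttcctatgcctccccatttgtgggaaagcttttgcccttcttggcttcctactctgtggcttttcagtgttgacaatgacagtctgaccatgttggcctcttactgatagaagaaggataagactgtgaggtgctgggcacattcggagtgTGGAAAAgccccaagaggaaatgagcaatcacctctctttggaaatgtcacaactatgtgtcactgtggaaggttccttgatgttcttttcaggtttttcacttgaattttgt

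The central windows of all 113820 regions hold the RUNX letters in 11%, T-box in 1.68%, GATA in 15.2%, bZIP in 13.0%, TCF in 12.7%, NFAT in 7.16%, ETS in 13.2% and NR4A in 1.63%. Over the 165 member windows the shares were 10.3%, 1.21%, 16.4%, 12.7%, 13.3%, 8.48%, 10.9% and 1.21%. A match describes the letters and not a bound site.

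Btla, on chromosome 16, encodes an inhibitory receptor of T and B cells. Its locus sum was 185 and 217 in the IL-4+ LN libraries, 148, 132 and 140.6 in the IL-4+ lung libraries and 113.7 and 132.5 in the IFNγ+ lung libraries. Both LN libraries were above all 5 lung libraries, and the lung populations overlapped. It was 1.63-fold lower in IFNγ+ lung than in IL-4+ LN cells (log2 difference -0.70, SE 0.13, limma adjusted p = 0.0422), and the difference between IL-4+ lung and IL-4+ LN cells did not pass (-0.51, SE 0.12, limma adjusted p = 0.109). The former call was lost in 12 of 18 other settings, among them without any 1 of the 5 lung libraries (limma adjusted p = 0.051, 0.111 and 0.0943 without IL-4+ lung replicates 1, 2 and 3, and 0.515 and 0.236 without IFNγ+ lung replicates 1 and 2). Of the 21 regions, 20 had a lower mean in IL-4+ lung than in IL-4+ LN cells and 17 had a lower mean in IFNγ+ lung cells, with median log2 differences of -0.56 and -0.55, against -0.03 and -0.03 over all regions. B cells carry BTLA, and the sort had removed B220+ cells. B cell markers had summed levels over the 5 of 6 genes with a region of 234 and 195 in the LN, 179 to 192 in IL-4+ lung and 172 and 179.8 in IFNγ+ lung libraries, and their part in the Btla difference was not tested. Pax5 was the B cell gene that was called, lower in IFNγ+ lung than in IL-4+ LN cells (-1.27, limma adjusted p = 0.0346).

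The Btla differences that passed the test by region lay not at its start but downstream of its last exon. The regions on either side of the start, chr16:45222468-45224285 and chr16:45224347-45225040, had log2 levels of 4.08 to 5.12 and 4.58 to 5.20 in the 7 libraries, and neither passed in any comparison (limma adjusted p of 0.0751 and above). The region chr16:45261313-45261880, 37.3 kb downstream of the start, had log2 levels of 5.32 and 5.47 in IL-4+ LN, 3.45, 3.45 and 3.73 in IL-4+ lung and 2.84 and 3.74 in IFNγ+ lung libraries. The LN level was thus above that of the start regions, and the lung level below it. The region was 3.62-fold lower in IL-4+ lung cells (log2 difference -1.86, SE 0.27, limma adjusted p = 0.00826) and 4.31-fold lower in IFNγ+ lung cells (-2.11, SE 0.30, limma adjusted p = 0.00506), each against IL-4+ LN cells. The first call was lost without IL-4+ lung replicate 2 (-1.81, limma adjusted p = 0.0614) and the second without IFNγ+ lung replicate 1 (-1.65, limma adjusted p = 0.0818). The neighbouring region chr16:45261978-45262749 was lower at 2.47 and 2.75 in the LN, 1.5, 1.47 and 1.79 in IL-4+ lung and 0.75 and 0.96 in IFNγ+ lung libraries. It passed for IFNγ+ lung against IL-4+ LN cells (-1.76, SE 0.43, limma adjusted p = 0.0492), a call that held in 7 of 18 other settings and was lost without any library but IL-4+ lung replicate 1 (limma adjusted p of 0.0551 to 0.414).

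The central 300 bases of the first of these regions are shown because it is the Btla region with the smallest p in both comparisons with the LN (GRCm38, plus strand). The 2 stretches in capitals match the TCF letters ATCAAAG.
Btla downstream, chr16:45261447-45261746: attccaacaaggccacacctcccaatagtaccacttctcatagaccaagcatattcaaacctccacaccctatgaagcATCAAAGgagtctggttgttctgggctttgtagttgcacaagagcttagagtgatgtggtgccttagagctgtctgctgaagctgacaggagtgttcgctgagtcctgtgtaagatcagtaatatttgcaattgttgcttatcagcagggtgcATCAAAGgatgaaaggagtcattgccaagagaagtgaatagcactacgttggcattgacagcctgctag

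HVEM, the receptor that BTLA binds, is encoded by Tnfrsf14, whose locus sum went the same way. It was 110.7 and 98.8 in IL-4+ LN, 54.8, 57.5 and 53.3 in IL-4+ lung and 62.4 and 58.5 in IFNγ+ lung libraries, with no overlap between LN and lung. The log2 differences from IL-4+ LN cells were -0.91 (SE 0.11, limma adjusted p = 0.0189) in IL-4+ lung and -0.78 (SE 0.13, limma adjusted p = 0.024) in IFNγ+ lung cells. Tnfrsf14 was the 1 called locus among the ligands and counter-receptors, and its result was not recomputed under the other settings.

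**Figure D4:**
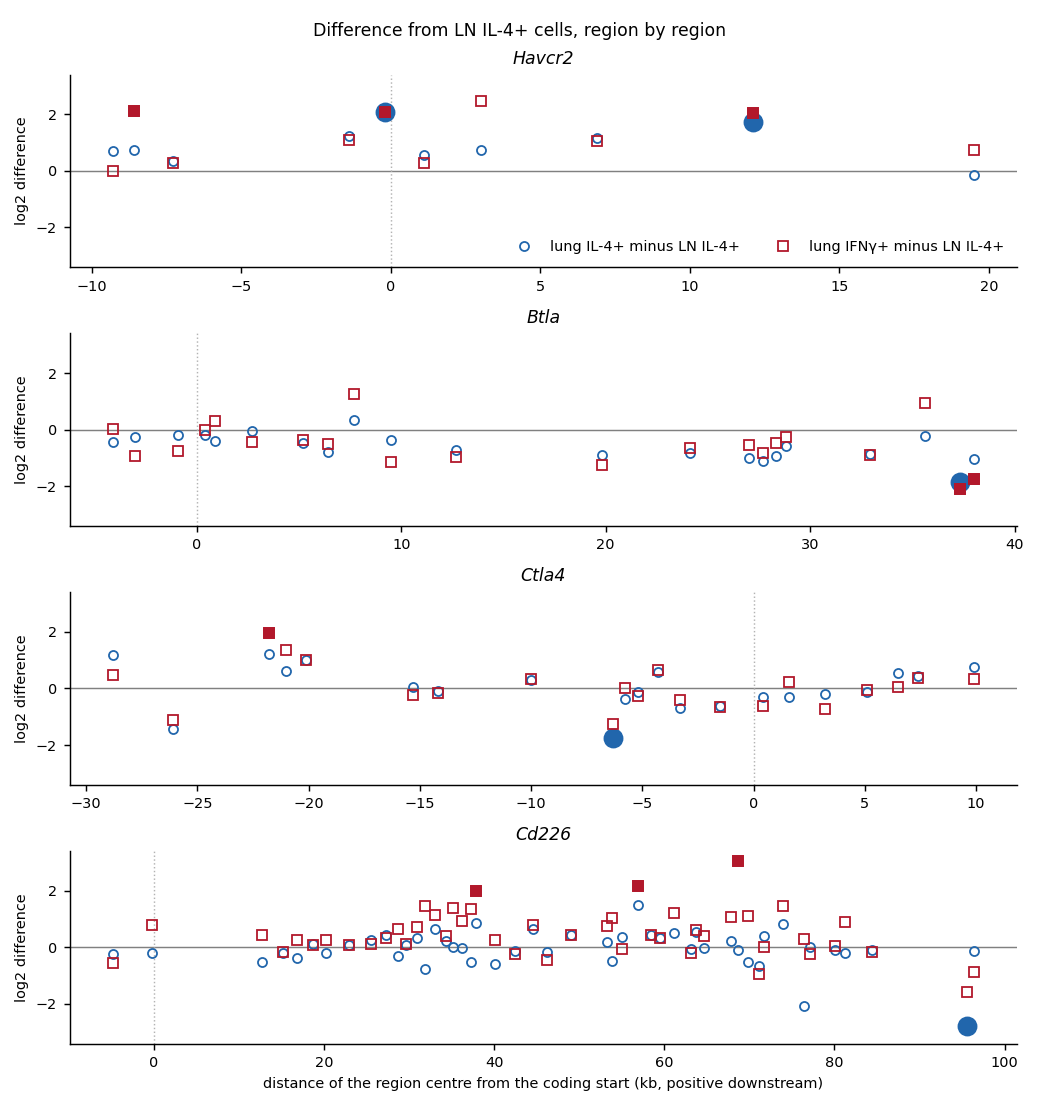
Log2 difference from IL-4+ LN cells (y axis) of each region at Havcr2, Btla, Ctla4 and Cd226 against the distance of the region centre from the coding start in kb (x axis, a different range in each panel), for IL-4+ lung (blue circles) and IFNγ+ lung cells (red squares), with filled symbols for called regions. The Havcr2 points lie at or above 0 but for 1 circle at -0.14, the Btla points fall below 0 along most of the gene, and Ctla4 has called regions of both signs upstream of its coding start.

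Ctla4, on chromosome 1, did not pass the test in its locus sum, which was 246 and 257 in IL-4+ LN, 199, 284 and 291 in IL-4+ lung and 207 and 221 in IFNγ+ lung libraries. IL-4+ lung replicate 1 was the lowest of the 7 libraries, and replicates 2 and 3 of the same population were the highest. The log2 difference between IL-4+ lung and IL-4+ LN cells was 0.02 (SE 0.17, limma adjusted p = 0.979), which was 0.22 within the narrow class and -0.36 within the wide class, so its sign differed with the class. Between IL-4+ lung and IFNγ+ lung cells it was 0.25 (SE 0.17, limma adjusted p = 0.425) and positive in 18 of 18 other settings. It was called in only 1 of them, with library weights whose estimation stopped before convergence (0.39, limma adjusted p = 2.01e-05). The region over the protein-coding starts, chr1:60908480-60910352, had log2 levels of 3.71 to 4.66 and passed in no comparison (limma adjusted p of 0.299 and above). Within the locus, however, regions upstream of that start moved in opposite directions.

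In the region chr1:60902418-60903012, 6.3 kb upstream of the Ctla4 coding start and inside an intron of a longer noncoding transcript of the gene, the log2 level was 3.99 and 3.81 in the IL-4+ LN libraries. It was 2.21, 2.17 and 2.09 in the IL-4+ lung and 2.55 and 2.76 in the IFNγ+ lung libraries, with LN highest and IL-4+ lung lowest without overlap. It was 3.35-fold lower in IL-4+ lung than in IL-4+ LN cells (log2 difference -1.74, SE 0.27, limma adjusted p = 0.00985), and IFNγ+ lung cells were 2.37-fold lower (-1.24, SE 0.29, limma adjusted p = 0.0412), under the fold required. The call was lost without IL-4+ lung replicate 2 (-1.75, limma adjusted p = 0.0558). The difference was -1.86 within the narrow and -1.60 within the wide class. The region chr1:60886956-60887501 is centred at -21.8 kb from the coding start, at the start of that noncoding transcript, and went the other way, with 1.37 and 2.02 in the LN, 2.93, 2.67 and 3.11 in IL-4+ lung and 3.49 and 3.80 in IFNγ+ lung libraries. IFNγ+ lung cells were 3.88-fold higher than IL-4+ LN cells (1.96, SE 0.34, limma adjusted p = 0.0122), lost without IFNγ+ lung replicate 1 or 2 (limma adjusted p = 0.141 and 0.197), and IL-4+ lung cells did not pass (1.21, SE 0.31, limma adjusted p = 0.0694).

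The central 300 bases of the intron region are shown as the Ctla4 stretch that was more open in the LN (GRCm38, plus strand), with the letters CTTTGAA in capitals, which read TTCAAAG, the other TCF spelling, on the minus strand.
Ctla4 intron, chr1:60902565-60902864: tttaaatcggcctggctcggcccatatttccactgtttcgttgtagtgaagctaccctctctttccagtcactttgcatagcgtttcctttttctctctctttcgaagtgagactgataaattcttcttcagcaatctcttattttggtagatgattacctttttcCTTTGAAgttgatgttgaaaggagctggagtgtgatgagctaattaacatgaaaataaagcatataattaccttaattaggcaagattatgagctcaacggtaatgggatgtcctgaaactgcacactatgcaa

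Regulatory T cells carry CTLA-4 and TIGIT, so their markers were read beside these loci. All 6 had regions, and their summed levels were 764 and 858 in IL-4+ LN, 995, 1037 and 1088 in IL-4+ lung and 940.1 and 954 in IFNγ+ lung libraries. The Foxp3 sum was 119 and 103 in the LN, 133, 156 and 169 in IL-4+ lung and 97.8 and 115 in IFNγ+ lung libraries (IL-4+ lung minus IL-4+ LN 0.46, limma adjusted p = 0.206). Il2ra, the IL-2 receptor alpha chain, was the marker that was called, 2.09-fold higher in IL-4+ lung than in IL-4+ LN cells (1.06, limma adjusted p = 0.0196), with 150.2 and 138 in IL-4+ LN and 261, 307.5 and 343 in IL-4+ lung libraries. In that comparison Ikzf4 differed by 0.29, Nrp1 by 0.22, Ikzf2 by -0.11 and Lrrc32 by -0.15, and none of these passed (limma adjusted p of 0.244 to 0.828). The part of such cells in the Ctla4 and Tigit values was not tested.

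Cd28, the gene next to Ctla4 on chromosome 1, had the highest locus sum of the members. It was 428 and 332 in IL-4+ LN, 266, 452 and 506 in IL-4+ lung and 269 and 285 in IFNγ+ lung libraries. As at Ctla4, IL-4+ lung replicate 1 was the lowest of the 7 libraries and replicates 2 and 3 the highest, so IL-4+ lung libraries spanned the range of all others. The log2 difference between IL-4+ lung and IL-4+ LN cells was 0.06 (SE 0.26, limma adjusted p = 0.95), with 0.16 within the narrow and -0.32 within the wide class. That between IL-4+ lung and IFNγ+ lung cells was 0.51 (SE 0.26, limma adjusted p = 0.358). Without IL-4+ lung replicate 1 the latter was 0.79 (limma adjusted p = 0.0799), and within the wide class it was -0.06. The 3 libraries with the highest sums were those of the narrow class. With the spread class as a covariate neither Cd28 nor Ctla4 was called in any comparison, and the effect of the class itself on their values was not tested.

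The broad region at the Cd28 start, chr1:60745471-60755252, was the longest member region with 9782 bp, and its log2 level was 4.02, 3.96 and 4.08 in the narrow-class libraries and lower in every wide-class one. The most open Cd28 region lay in an intron 12 kb downstream of the start, chr1:60758131-60758645, with 5.35 and 5.75 in IL-4+ LN, 4.95, 4.90 and 5.21 in IL-4+ lung and 5.71 and 5.95 in IFNγ+ lung libraries. Its libraries did not split by class, and IL-4+ lung was lowest. The difference between IL-4+ lung and IFNγ+ lung cells was -0.81 (SE 0.19, limma adjusted p = 0.0889), the smallest p at Cd28. No Cd28 region passed in any comparison.

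Tigit, on chromosome 16, encodes the inhibitory partner of CD226. Its locus sum was 152 and 165 in IL-4+ LN, 156, 167 and 165 in IL-4+ lung and 188 and 207 in IFNγ+ lung libraries. Between IL-4+ lung and IL-4+ LN cells the log2 difference was 0.04 (SE 0.10, limma adjusted p = 0.91), with 0.13 within the narrow and -0.08 within the wide class. Both IFNγ+ lung libraries were above the other 5, but the differences did not pass the test (IFNγ+ lung minus IL-4+ LN 0.31, SE 0.11, limma adjusted p = 0.23, and IL-4+ lung minus IFNγ+ lung -0.27, SE 0.10, limma adjusted p = 0.314). Of its 22 regions, 9 had both IFNγ+ lung libraries above both LN libraries and 9 had them above all IL-4+ lung libraries, against 26.5% and 21.2% of all regions. The promoter region chr16:43663758-43664561 was at 6.09 and 6.54 in IL-4+ LN, 6.57, 6.48 and 6.36 in IL-4+ lung and 6.74 and 6.82 in IFNγ+ lung libraries. The adjoining upstream region chr16:43664591-43665443 came nearest to the threshold, with 3.93 and 4.03, then 4.40, 4.37 and 4.36, and then 4.63 and 4.82 in the same order of populations. The IFNγ+ lung libraries were highest and the LN libraries lowest without overlap, by 0.74 on the log2 scale (SE 0.20, limma adjusted p = 0.0642).

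Lag3, on chromosome 6 next to Cd4, encodes an inhibitory receptor that resembles CD4 and binds the same MHC class II molecules. Its locus sum was 157 and 132 in IL-4+ LN, 163, 159 and 159.5 in IL-4+ lung and 125.5 and 136 in IFNγ+ lung libraries. The 3 IL-4+ lung libraries were above the other 4, but not beyond the threshold (IL-4+ lung minus IFNγ+ lung 0.29, SE 0.11, limma adjusted p = 0.314). Its start region, chr6:124909983-124911987, was at 3.68 and 2.94 in IL-4+ LN, 3.17, 3.42 and 3.34 in IL-4+ lung and 2.60 and 2.67 in IFNγ+ lung libraries. The LN libraries were farther apart than any pair of population means, and no comparison passed (limma adjusted p of 0.279 and above). The most open Lag3 region, chr6:124900375-124901547, lies downstream of the gene towards Cd4 and had log2 levels of 4.48 to 5.11. Reads there and at the genes Ptms and A230083G16Rik, whose bodies some flank regions overlap, cannot be assigned to Lag3.

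Cd200, on the minus strand of chromosome 16, encodes the ligand of the inhibitory receptor CD200R1. Its locus sum was 50.5 and 64.2 in IL-4+ LN, 45.9, 37.3 and 43.2 in IL-4+ lung and 36.7 and 36.2 in IFNγ+ lung libraries. The LN libraries were above all lung libraries, with log2 differences that did not pass the test (IL-4+ lung minus IL-4+ LN -0.43, SE 0.16, limma adjusted p = 0.272, and IFNγ+ lung minus IL-4+ LN -0.63, SE 0.17, limma adjusted p = 0.121). With voom on the rebuilt counts the latter passed (limma adjusted p = 0.0167), as it did with the spread class as a covariate (-0.76, limma adjusted p = 0.00309). The start region chr16:45406663-45409591 was at 3.28 and 3.33 in IL-4+ LN, 2.93, 2.76 and 3.05 in IL-4+ lung and 2.67 and 2.51 in IFNγ+ lung libraries. It followed the order of the locus sums without overlap, and no comparison passed (limma adjusted p of 0.208 and above). Cd200r1, its receptor gene, had higher sums in the lung, with 54.4 and 70.5 in IL-4+ LN, 88.7, 86.6 and 97.5 in IL-4+ lung and 77.3 and 83.1 in IFNγ+ lung libraries, but did not pass either (IL-4+ lung minus IL-4+ LN 0.54, SE 0.14, limma adjusted p = 0.13).

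Cd226, the longest member gene with 95.3 kb, lies on chromosome 18 and encodes the activating receptor that shares ligands with TIGIT. Its locus sum was 149.9 and 238 in IL-4+ LN, 204, 198 and 218 in IL-4+ lung and 274 and 275 in IFNγ+ lung libraries. The IFNγ+ lung libraries were above the other 5, and the LN libraries were so far apart that they enclosed all IL-4+ lung values. No difference passed the test (IFNγ+ lung minus IL-4+ LN 0.54, SE 0.20, limma adjusted p = 0.239, and IL-4+ lung minus IFNγ+ lung -0.41, SE 0.18, limma adjusted p = 0.338). Without IL-4+ LN replicate 2 the former was 0.87, which leaves the narrow-class library as the only LN library. Within the wide class, which holds both IFNγ+ lung libraries, the former was 0.21 and the latter -0.43. Between IL-4+ lung and IL-4+ LN cells the difference was 0.47 within the narrow class and -0.22 within the wide class.

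By region, Cd226, with 48 of the 165 member regions, held 4 of the 11 called regions and the largest fold among them. In the intron region chr18:89245547-89245983, 68.7 kb downstream of the coding start, both IFNγ+ lung libraries stood apart at 5.59 and 5.49, against 1.54 and 3.42 in IL-4+ LN and 2.87, 2.42 and 1.81 in IL-4+ lung libraries. IFNγ+ lung cells were 8.35-fold above IL-4+ LN cells (log2 difference 3.06, SE 0.53, limma adjusted p = 0.0121) and 9.02-fold above IL-4+ lung cells (IL-4+ lung minus IFNγ+ lung -3.17, SE 0.49, limma adjusted p = 0.0246), the 1 member region called between the lung populations. Within the wide class, the only one with IFNγ+ lung libraries, these differences were 2.12 and -2.67. The difference from IL-4+ LN cells was 2.12 without IL-4+ LN replicate 1 and 4.00 without replicate 2, and was called in both (limma adjusted p = 0.0236 and 0.000725). Without IFNγ+ lung replicate 1 or 2 the differences were 3.01 and 3.11 and at -3.13 and -3.22 and missed the threshold (limma adjusted p of 0.106 to 0.547), and without IL-4+ lung replicate 2 or 3 the difference between the lung populations was -3.20 and -2.90 (limma adjusted p = 0.14 and 0.109).

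The other called intron regions of Cd226 were also higher in IFNγ+ lung than in IL-4+ LN cells. The region chr18:89214593-89215256 was at 1.43 and 1.56 in IL-4+ LN, 1.81, 2.89 and 2.40 in IL-4+ lung and 3.44 and 3.5 in IFNγ+ lung libraries, a log2 difference of 1.97 (SE 0.40, limma adjusted p = 0.0232) that was lost without IL-4+ LN replicate 1 (limma adjusted p = 0.065) or IFNγ+ lung replicate 1 or 2 (0.252 and 0.245). The region chr18:89233532-89234267 was at 1.67 and 3.16 in IL-4+ LN, 4.72, 3.64 and 3.37 in IL-4+ lung and 4.57 and 4.59 in IFNγ+ lung libraries. Its lung populations overlapped, and its log2 difference of 2.16 (SE 0.50, limma adjusted p = 0.0408) held in 9 of 18 other settings and was lost without IL-4+ LN replicate 1, IL-4+ lung replicate 2 or 3 or either IFNγ+ lung library (limma adjusted p of 0.0539 to 0.259). It was 1.42 without IL-4+ LN replicate 1 and 2.91 without replicate 2. Downstream of the gene, the region chr18:89272399-89272802 was at 2.71 and 3.31 in IL-4+ LN, 0.60, 0.41 and -0.29 in IL-4+ lung and 1.61 and 1.28 in IFNγ+ lung libraries. In this region IL-4+ LN cells were 6.81-fold above IL-4+ lung cells (IL-4+ lung minus IL-4+ LN -2.77, SE 0.49, limma adjusted p = 0.0164). The rebuilt counts behind it were 91 and 246 insertions in IL-4+ LN and 14, 32 and 15 in IL-4+ lung libraries. The call held in 13 of 18 other settings. It was lost without IL-4+ LN replicate 2 (-2.47) or IL-4+ lung replicate 2 (-2.85, limma adjusted p = 0.0637). It was also lost with voom on rebuilt counts, 2 populations at a time or the replicate block. Over the 48 regions, the mean was higher in 22 and lower in 26 in IL-4+ lung than in IL-4+ LN cells, against 54339 and 59481 of all 113820 regions. It was higher in 37 and lower in 11 in IFNγ+ lung than in IL-4+ LN cells, against 55188 and 58632 of all regions. The most open Cd226 region, chr18:89205965-89207275 at an internal start, was at 4.48 to 5.56 and passed in no comparison (limma adjusted p of 0.864 and above).

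NK cells and myeloid cells also carry CD226 and TIM-3, and some markers of both were higher in IFNγ+ lung libraries, although the sort had removed NK1.1+, CD11b+ and CD11c+ cells. Klrb1c, the gene of NK1.1, and Klre1 were called higher in IFNγ+ lung than in IL-4+ LN cells (0.76, limma adjusted p = 0.0196, and 1.99, limma adjusted p = 0.00786). These are 2 of the 3 NK genes with a region, and 1.39% of all loci were called in that direction. Eomes, the other, was at 68.9 and 60.0 in IL-4+ LN and at 54.3 and 48.6 in IFNγ+ lung libraries (-0.32, limma adjusted p = 0.356). The summed NK level was 134 to 149.9 in the IL-4+ libraries and 205 and 203 in the IFNγ+ lung libraries. Of 5 myeloid genes with a region, Itgam, the gene of CD11b (1.46, limma adjusted p = 0.0183) and Mpeg1 (0.93, limma adjusted p = 0.0361) were called, with summed levels of 142 to 166 and of 197 and 192. Spi1 had a difference of -0.16 (limma adjusted p = 0.704) and Cd14 of 0.17 (limma adjusted p = 0.514). Ncr1 and Lyz2 had no region, and Csf1r was at 1.1 to 4.1 in the 7 libraries. The part of these cells in the Cd226 and Havcr2 differences was not tested.

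Among 12 other receptors of the same families, 2 were called higher in IL-4+ lung than in IL-4+ LN cells, against 0.693% of all loci. In IFNγ+ lung against IL-4+ LN cells 3 were called higher and 2 lower, against 1.39% and 0.864% of all loci. In these comparisons the median log2 differences over the list were 0.16 and -0.02, against -0.09 and -0.06 over all loci. Cd244a, a receptor of the SLAM family, was called in both (0.62, limma adjusted p = 0.0446, and 0.59, limma adjusted p = 0.0467). Cd101 was called in IL-4+ lung cells (0.55, limma adjusted p = 0.0495). Pvrig (1.66, limma adjusted p = 0.0187) and Cd96 (0.68, limma adjusted p = 0.0358), inhibitory receptors of the nectin ligands that also bind CD226 and TIGIT, were called higher in IFNγ+ lung cells. Pvrig rested on 2 regions, with low sums of 1.37 and 1.51 in IL-4+ LN and 6.14 and 7.29 in IFNγ+ lung libraries, near the pseudocount of 1. Cd160, which like BTLA binds HVEM, was lower in IFNγ+ lung cells (-0.88, limma adjusted p = 0.0422), as was Slamf6 (-0.72, limma adjusted p = 0.0358). None was called between the lung populations, and the results of these receptors under the other settings are not given here.

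Icos, the costimulatory receptor that neighbours Ctla4, was at 191 and 158 in IL-4+ LN, 148, 307 and 315 in IL-4+ lung and 173 and 182 in IFNγ+ lung libraries. It repeated the low value of IL-4+ lung replicate 1 seen at Cd28 and Ctla4 and passed in no comparison (limma adjusted p of 0.424 and above). Pdcd1, the gene of the inhibitory receptor PD-1, was at 259 to 287 in all 7 libraries (limma adjusted p of 0.633 and above). Of the 12 of 13 ligands and counter-receptors with a region, the called locus was Tnfrsf14, and 0 of 18 signalling partners passed in any comparison.

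Loci on other chromosomes whose log2 sums ran most alike over the 7 libraries were Rtf2 and Atp8a2 for Havcr2 (Pearson's r = 0.996 and 0.995), Trp53i11 and Peli1 for Cd28 (0.989 and 0.986) and Nsmce1 and Tnks for Ctla4 (0.971 and 0.969). For Lag3 they were Rasip1 and Timeless (0.982 and 0.974), for Tigit Prpf4b and Raet1e (0.978 and 0.972), for Cd200 Ntrk3 and Adprhl1 (0.985 and 0.983) and for Cd226 Ift57 and Anapc4 (0.993 and 0.991). With 7 libraries and 12894 to 13746 loci to choose from, such values describe these libraries only.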

How the data were processed

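The authors trimmed the reads, mapped them with Bowtie2 2.3.2 to GRCm38, called summits per replicate with MACS2 2.1.1, merged regions, counted insertions and normalized them with voom (limma 3.38.3 in R 3.5.1). The deposited values are log2 normalized insertions per kb. Some steps come from the paper's methods and versions from the submitters' processing notes. Whole counts were rebuilt from tied values, as lower bounds, and cover counting error only.

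Regions were assigned with GENCODE M21. The 3 population means were fitted with limma 3.58.1 (R 4.3.3, Python 3.11.15) and a variance trend, with Benjamini-Hochberg adjustment over all regions or loci, with no filter on low values, and a pseudocount of 1 for locus sums. The procedure was tested on simulated data. P values measure the spread between libraries from a single experiment with 2 to 3 mice per population.

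Named regions were all called member regions and, per gene, the most open promoter and region and the smallest p in each comparison. Likeness was the highest r on other chromosomes, and that for Btla is not reported here. The members and lists were chosen with earlier results of these data known.

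Alternatives were other scalings, pseudocounts, filters, thresholds and windows, 2 populations at a time, a replicate block, a spread class covariate, library weights, voom on rebuilt counts and each library left out.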

Additional observations from a re-analysis of the deposited data

How the results depend on the processing

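Directions of the called loci and regions were kept in every setting run, while calls were not. Counts of member regions called ranged, when 1 library was left out, from 1 to 3 for IL-4+ lung over IL-4+ LN cells, 0 to 3 for the reverse, 0 to 9 for IFNγ+ lung over IL-4+ LN cells, 0 to 2 for the reverse and 0 to 1 for IFNγ+ lung over IL-4+ lung cells. Counts of loci ranged from 0 to 1 for IL-4+ lung over IL-4+ LN cells, 0 to 2 for IFNγ+ lung over IL-4+ LN cells and 0 to 1 for the reverse. Without IFNγ+ lung replicate 1 or 2 the 7 regions higher in IFNγ+ lung than in IL-4+ LN cells became 0 and 1, and without IL-4+ lung replicate 2 the 3 regions higher in IL-4+ LN than in IL-4+ lung cells became 0.

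The labels do not say whether a replicate number marks a mouse, and the numbers were not used to pair samples. For the same number, r of deviations from the population mean was -0.54 to 0.06. Where a population has 2 libraries their deviations mirror each other, so these values cannot decide whether the numbers pair samples. With the replicate block, the regions called were 1 for IFNγ+ lung over IL-4+ LN cells, 1 for the reverse and 0 in the other comparisons, and 0 loci were called. Of the regions lower in IFNγ+ lung than in IL-4+ LN cells (2), 1 was left with median centring, quantile normalization, a pseudocount on the densities or 2 populations at a time, 0 with the gene body alone, and 4 were called with voom on rebuilt counts. The Btla locus call in that direction was lost (0 loci) with median centring, quantile normalization, 2 populations at a time, library weights, the gene body alone or 25 kb on each side, and 2 loci were called with voom or the spread class covariate. Fits of 2 populations at a time called 0 loci in every comparison. The spread class covariate called 2 loci higher in IL-4+ LN than in IL-4+ lung cells and 2 regions higher in IFNγ+ lung than in IL-4+ lung cells. Library weights, whose estimation stopped before convergence, called 1 region and 3 loci higher in IL-4+ lung than in IFNγ+ lung cells and 4 regions and 2 loci in the reverse. Voom called 1 region higher in IL-4+ lung than in IL-4+ LN cells, and the gene body alone left 1 of the 3 regions in the reverse. The cause was not tested. The signs of uncalled locus differences at Cd28, Ctla4, Tigit, Cd226 and Btla changed in 1 to 8 of 18 settings.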
